A study of Mus musculus with 3 samples.

Results

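The genes of the constitutive proteasome were described in 3 acute myeloid leukemias of mice that lacked miR-196b. Members were the rows whose symbol was Psma, Psmb, Psmc or Psmd followed by a number, without Psmb8, Psmb9 and Psmb10, which encode the inducible catalytic subunits. This gave 36 of the 28074 gene symbols analysed. Of the 36, 14 encode the core particle, 17 encode the regulatory particle, 3 (Psmd5, Psmd9 and Psmd10) encode chaperones that help build the base of the regulatory particle, and 2 (Psma8 and Psmb11) encode subunits known from single tissues.

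The 3 libraries form 1 group. Each holds leukemic spleen cells of 1 moribund mouse with the genotype miR196b-/-, Dnmt3afl/fl, Flt3ITD/ITD, Mx1Cre, and the titles call the same mice Dnmt3a+/-. All 3 leukemias therefore shared a deleted microRNA gene, a Dnmt3a lesion and an internal tandem duplication of the receptor Flt3. The Cre recombinase was driven by the interferon-responsive Mx1 promoter, which is not restricted to leukemic cells. Red cells were lysed and cells with the receptor c-Kit were enriched on magnetic beads before RNA was taken, per the labels' protocols. Ages and sexes were not analysed here. The control leukemias with miR-196b belong to an earlier study and were not used here, so no difference between genotypes is given. The numbers 1, 2 and 3 given to the mice follow the sample accessions and serve as names only.

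Values are in TPM, a share of transcripts scaled for transcript length and for the library's total, so that levels of different genes can be set side by side. The labels give a plan of 30 M paired reads of 150 nt and an RNA integrity number above 8 for each library. TPM keeps no record of the depth reached, so the spread between mice is the only error available. Kit stood at 139, 149 and 133 TPM in mice 1, 2 and 3, and all 8 measured markers of myeloid blasts had a mean of at least 1 TPM. Summed markers of neutrophils were 2259, 6051 and 20403 TPM, those of macrophages 16.3, 27.7 and 31.1 TPM, and those of T and NK cells 8.76, 12.97 and 13.8 TPM. A mean of at least 1 TPM was reached by 2 of 5 macrophage markers and by 3 of 5 T and NK cell markers. Emr1 alone gave 12.7, 21.5 and 21.6 TPM of the macrophage sum. Most of the T and NK cell sum came from Cd8a and Cd4 (means 4.79 and 4.55 TPM), while Cd3e and Cd3g had means of 0.653 and 0.476 TPM. In bulk RNA, fewer cells of a type and less RNA per cell cannot be told apart.

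The proteasome degrades proteins that carry ubiquitin chains. Its core particle is a barrel of stacked rings: the outer rings of alpha subunits gate the entry, and the inner rings of beta subunits hold the proteolytic sites. The regulatory particle caps the barrel, with a base of ATPases that unfold the substrate and a lid that removes its ubiquitin. Immature blood cells and leukemias depend on this machine, and inhibitors of its beta subunits are used as drugs in blood cancers.

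Members were abundant. At least 1 TPM was reached in all 3 mice by 35 of 36 members (97.2%), against 50.7% of all symbols. Among the 15181 genes with a mean of at least 1 TPM, 17 members (47.2%) were among the 10% most abundant. Summed over members, transcripts made up 0.449%, 0.392% and 0.409% of the listed TPM in mice 1, 2 and 3. The median over members was 103, 87.0 and 92.0 TPM in the same order.

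**Figure D1:**
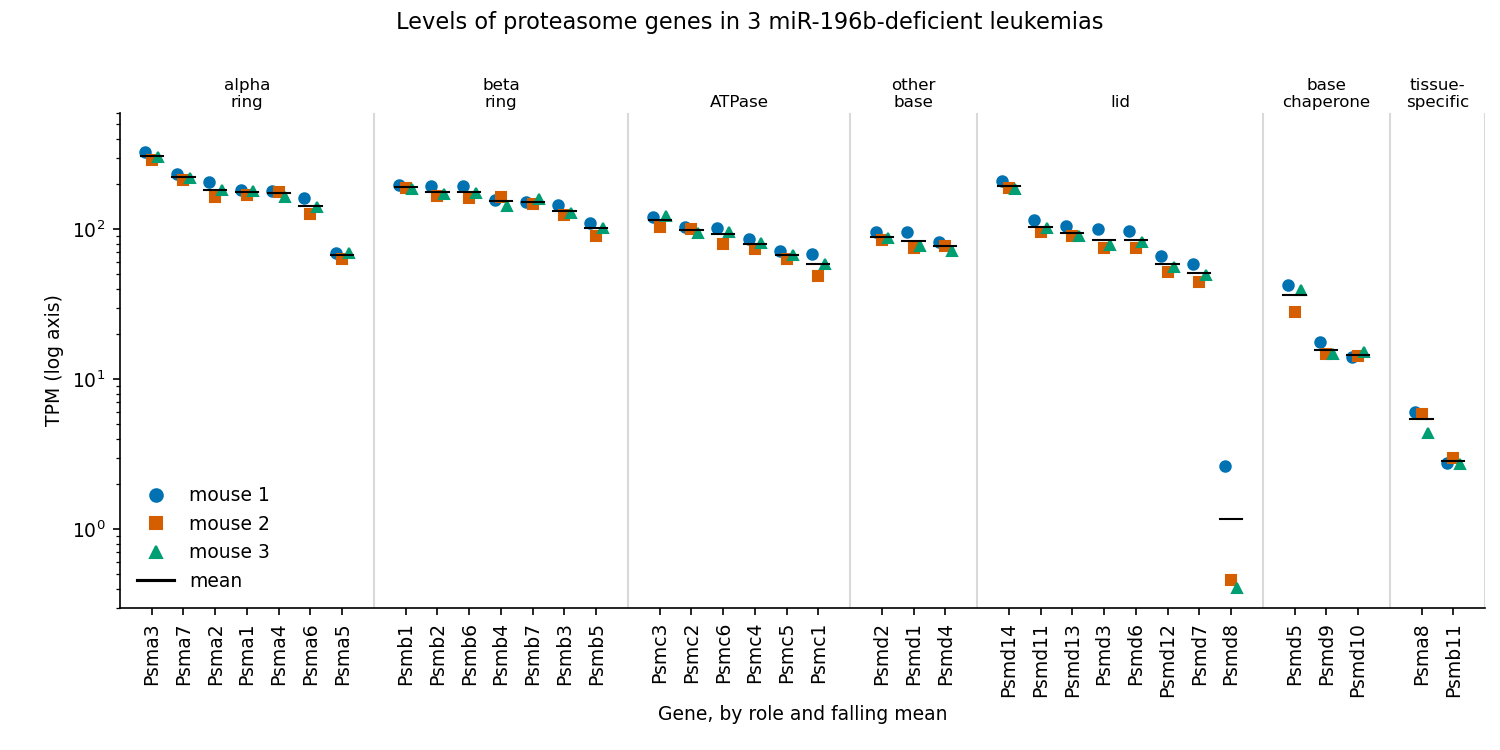
TPM on a log axis for each of the 36 genes, grouped by role and ordered by falling mean; symbols are the 3 mice and bars their mean. The core subunits lie between 67.4 TPM (Psma5) and 308 TPM (Psma3), and Psmd8 stands below every other member at a mean of 1.17 TPM.

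The alpha ring, which gates the core, held the most abundant member. Psma3 had 328, 291 and 304 TPM in mice 1, 2 and 3 (mean 308 ± 19.1, SD, n = 3), and its lowest mouse was above the highest mouse of Psma7, the next gene in order. Psma7 had 235, 212 and 220 TPM. Psma5 had 69.1, 63.5 and 69.5 TPM and was the least abundant of the 7 alpha genes, with no overlap with the other 6. The other alpha genes, Psma1, Psma2, Psma4 and Psma6, had means between 142 and 184 TPM. The highest mean of this ring was 4.57 times the lowest.

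The beta ring was more even, with a highest mean 1.88 times the lowest. Psmb1, a non-catalytic subunit, led it with 196, 189 and 185 TPM. The catalytic subunits differed in level. Psmb6, the caspase-like subunit, had 193, 162 and 175 TPM (mean 176 ± 15.7, SD, n = 3). Psmb7, the trypsin-like subunit, had 152, 146 and 159 TPM (mean 152 ± 6.15). Psmb5, the chymotrypsin-like subunit that proteasome inhibitors bind first, was the lowest of the 7 with 111, 89.9 and 103 TPM (mean 101 ± 10.5). Its highest mouse was below the lowest mouse of Psmb6 and of Psmb7. Psmb2, Psmb3 and Psmb4 had means of 177, 132 and 154 TPM.

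In the regulatory particle, the 6 ATPases ranged from 58.6 to 116 TPM. Psmc3 was highest with 121, 104 and 123 TPM, and Psmc1 lowest with 68.6, 48.6 and 58.7 TPM, so that the ranges of these ATPases did not overlap. Psmc2, Psmc4, Psmc5 and Psmc6 had means of 99.4, 80.0, 67.5 and 92.5 TPM. The other base subunits were close to one another: Psmd2, a scaffold, had 95.7, 84.3 and 87.3 TPM, and Psmd4, a ubiquitin receptor, had 82.2, 77.4 and 71.9 TPM. Psmd1, also a scaffold, had a mean of 82.8 TPM.

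The 8 lid genes held both high and low members. Psmd14, the enzyme that cuts ubiquitin chains off the substrate, had 208, 187 and 187 TPM (mean 194 ± 12.2, SD, n = 3), at the level of the core subunits. Psmd7, which forms a dimer with Psmd14 in the lid, had 58.5, 44.4 and 49.3 TPM (mean 50.7 ± 7.16). In each mouse Psmd14 was above Psmd7, and the ranges did not overlap. Psmd3, Psmd6, Psmd11, Psmd12 and Psmd13 had means of 84.7, 84.5, 104, 58.2 and 94.5 TPM.

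Psmd8, a lid subunit of every regulatory particle, was listed at 2.64, 0.459 and 0.406 TPM. Mouse 1 was above the others, and all 3 values were below those of the 7 other lid genes. On the log2(TPM + 1) scale the SD between mice was 0.78, and without mouse 1 the remaining pair lay between 0.406 and 0.459 TPM. In the GENCODE M21 annotation 0 other genes had exons over those of Psmd8 and 0 other transcripts aligned to it over at least 500 nt at 90% identity or more. The table also held 795 rows without a symbol, which were not analysed here. The cause of the low value was not tested.

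Copies of this kind were found for 12 of the 36 members, 25 in all, nearly all of them processed pseudogenes, and reads of such members may be divided between gene and copy. Of the 25, 16 were listed in the table and 2 reached 1 TPM in a mouse: Gm6542, a copy of Psma4, at 4.81, 5.76 and 4.02 TPM, and Gm14227, a copy of Psmb3, at 6.53, 7.55 and 5.76 TPM. These values are small beside the means of 173 TPM for Psma4 and 132 TPM for Psmb3. Exons of 9 members overlap those of other annotated genes, mostly on the opposite strand. The most abundant such neighbours lie opposite: exons of Psmb7 overlap Nek6 (62.8, 72.9 and 54.5 TPM) and exons of Psmd13 overlap Sirt3 (43.4, 31.7 and 32.5 TPM). Whether the quantification used strand is not given in the sources used here.

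Transcripts of core genes were more abundant than those of regulatory genes in every mouse, taken as medians. Amounts of the particles themselves were not measured. The median over the 14 core genes was 181, 163 and 167 TPM, and that over the 17 regulatory genes 95.9, 75.2 and 80.5 TPM, in mice 1, 2 and 3. The difference of medians on the log2(TPM + 1) scale was 0.91, 1.11 and 1.05, a mean of 1.02 ± 0.10 (SD, n = 3), or 2.03-fold. Its direction was the same in 3 of 3 mice, and the two-sided exact sign-flip permutation test over mice gave p = 0.25, the smallest value that 3 mice allow. Of the 238 pairs of a core with a regulatory gene, the core gene was higher in all 3 mice for 211 (88.7%). Most of the other pairs held Psma5, a low core gene, or Psmd14, a high regulatory gene.

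Within the particles, differences were small or varied in sign. The alpha median exceeded the beta median by 0.22, 0.06 and 0.18 log2 units (mean 0.16 ± 0.09, SD, n = 3; two-sided exact permutation p = 0.25). The base exceeded the lid by -0.05, 0.06 and 0.00101 (mean 0.0037 ± 0.051; two-sided exact permutation p = 0.75). With means over subunits in place of medians the base exceeded the lid by 0.61, since the mean takes in Psmd8.

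**Figure D2:**
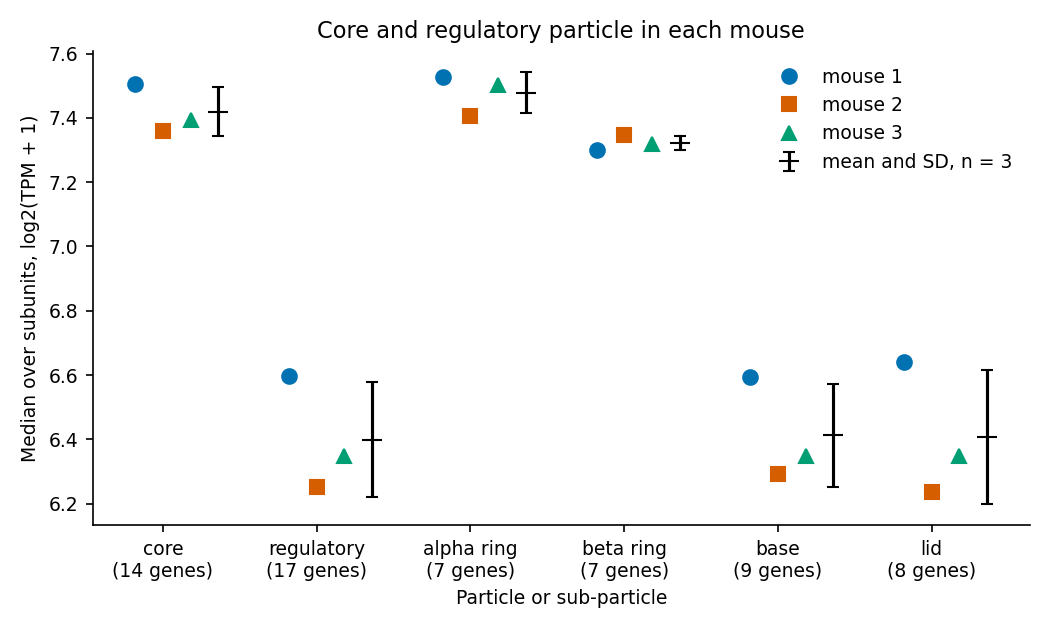
Median over the subunits of each particle or sub-particle on the log2(TPM + 1) scale, by mouse, with the mean and SD of the 3 mice. The core medians lie between 7.36 and 7.51, above the regulatory medians of 6.25 to 6.598, and base and lid overlap.

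The base chaperones, which leave the particle once it is built, were less abundant than 30 of the 31 genes of the particles. Psmd5 had 42.5, 28.0 and 39.5 TPM (mean 36.7 ± 7.61, SD, n = 3) and was the lowest in mouse 2. Psmd9 had 17.8, 14.7 and 14.7 TPM. Psmd10, also known as gankyrin, had 14.1, 14.4 and 15.1 TPM. Psmd8 alone among the particle genes was below them.

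Both tissue-specific genes were detected at low levels. Psma8 is the testis form of the alpha subunit Psma7. It had 5.998, 5.87 and 4.37 TPM (mean 5.41 ± 0.904, SD, n = 3), where Psma7 had a mean of 222 TPM. Psmb11 is the form of Psmb5 made by cortical epithelium of the thymus. It had 2.76, 2.99 and 2.73 TPM (mean 2.83 ± 0.140), where Psmb5 had a mean of 101 TPM. The values of the 3 mice were close for Psmb11, whose SD on the log2(TPM + 1) scale was 0.052. Psma8 was lowest in mouse 3, outside the range of the other mice.

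Of the markers of the tissues that make these subunits, those of male germ cells were low and those of thymic epithelium were mixed. Of 5 thymic epithelial markers, Krt5 was listed at 0 in all mice, Foxn1 had 0.348, 0.227 and 0.242 TPM and Krt8 had a mean of 0.223 TPM. The other 2, Epcam and Ccl25, had means of 2.69 and 10.3 TPM, and the summed markers were 20.9, 10.7 and 8.89 TPM. Of 5 male germ cell markers, 0 had a mean of 1 TPM or more, Sycp1 was listed at 0 in all mice, and the sums were 1.70, 0.819 and 1.45 TPM.

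The constitutive catalytic subunits compete with inducible ones for the same places in the beta ring. The inducible Psmb8 had 312, 416 and 333 TPM, above its constitutive partner Psmb5 in every mouse, by a mean of 1.79 log2 units (log2 ratio of Psmb5 to Psmb8 -1.79 ± 0.37, SD, n = 3). Psmb10 had 52.5, 57.6 and 50.6 TPM, below its partner Psmb7 in every mouse (log2 ratio of Psmb7 to Psmb10 1.49 ± 0.15). Each pair kept its direction in 3 of 3 mice, and the two-sided exact permutation p, raw and after Benjamini-Hochberg adjustment over the 2 pairs, was 0.25. The third pair, Psmb6 with Psmb9, was not analysed here.

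RefSeq promoter windows on GRCm38.p6, from 250 bases before to 50 bases after the start, were matched by symbol for 29 of the 36 members, 31 windows in all. Their median GC content was 56.7%, against 52.7% over all 32851 windows, and their median number of CG dinucleotides was 20, against 7. The GC box GGGCGG, searched on both strands, was in the window of 18 of 29 members (62.1%). The share was 38.2% over all 27025 genes with a window, the background also used for the other motifs. These genes and windows were not filtered by expression, whereas every member had a mean of at least 1 TPM. The GC box was in 10 of 14 matched regulatory genes and in 5 of 11 matched core genes. The CCAAT box, spelled CCAAT and searched on both strands, was held by 12 of 29 members (41.4%) and 41.1% of all genes. The TATA box TATAAA was held by 3 of 29 (10.3%) and by 15.7% of all genes, again on both strands.

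A further motif searched was TGACNNNGC, the core of the antioxidant response element, on both strands. The transcription factor Nfe2l1 is known to bind such elements at proteasome genes when proteasome activity drops. It was present for 5 of 29 members (17.2%), namely Psmb5, Psmb6, Psmc6, Psmd12 and Psmd9, and for 13.99% of all genes. In Psmb5 it began 47 bases before the start and in Psmd9 31 bases before it. The 250 bases before the start are printed for Psmb5, for its tissue-specific neighbour Psmb11, and for the chaperone gene Psmd9, 5′ to 3′ on the strand of the gene. Psmb5 and Psmb11 are shown because they lie 7314 bases apart on chromosome 14 and differ in level, and Psmd9 because it holds the motif while its level is low. Capitals mark TGACNNNGC in Psmb5 and Psmd9, and CCAAT in Psmb11, whose whole window does not hold TGACNNNGC.
Psmb5, chr14:54617996-54618245, minus strand: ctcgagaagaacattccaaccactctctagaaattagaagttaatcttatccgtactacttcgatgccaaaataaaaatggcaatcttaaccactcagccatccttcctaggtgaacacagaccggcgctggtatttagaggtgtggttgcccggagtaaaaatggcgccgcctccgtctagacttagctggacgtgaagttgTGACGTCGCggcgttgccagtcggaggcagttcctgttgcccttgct
Psmb11, chr14:54625060-54625309, plus strand: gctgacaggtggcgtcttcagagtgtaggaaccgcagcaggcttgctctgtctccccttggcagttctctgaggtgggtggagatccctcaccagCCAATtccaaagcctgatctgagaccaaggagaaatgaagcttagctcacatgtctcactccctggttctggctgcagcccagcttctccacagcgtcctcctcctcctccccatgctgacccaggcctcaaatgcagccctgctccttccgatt
Psmd9, chr5:123227940-123228189, plus strand: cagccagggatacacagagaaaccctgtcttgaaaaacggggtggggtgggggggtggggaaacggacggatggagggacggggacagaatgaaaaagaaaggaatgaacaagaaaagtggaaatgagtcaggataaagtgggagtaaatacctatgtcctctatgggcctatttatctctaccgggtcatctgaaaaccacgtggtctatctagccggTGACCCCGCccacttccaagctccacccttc
Both Psmb5, at a mean of 101 TPM, and Psmd9, at 15.7 TPM, hold the motif. A match is a run of letters and not a measured binding site.

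Levels of the 36 members were closely related between mice. Pearson's r of log2(TPM + 1) across them was 0.9901 between mice 1 and 2 and 0.996 between mice 2 and 3, with mice 1 and 3 in between at 0.993. These are correlations across genes quantified with 1 annotation, and genes are not independent replicates. Ordered by mean, 9 of the 35 neighbouring pairs did not overlap in range. A further 5 pairs overlapped in range but had the same order within every mouse: Psma4 over Psmb4, Psma6 over Psmb3, Psmc3 over Psmd11, Psma5 over Psmc1 and Psmd12 over Psmd7. For the remaining 21 pairs the order differed between mice.

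The spread between mice was narrow. The median SD over the 36 members was 0.12 log2 units, against 0.21 over all 15181 genes with a mean of at least 1 TPM, and 31 of 36 members were below that median of all genes. Genes in the same range of level as the assembled subunits, 2988 in number, had a median SD of 0.18, and 22 of 30 subunits (all but Psmd8) were below it. A ratio of at least 1.5 between the highest and the lowest mouse was found for 2 of 36 members (5.56%), Psmd8 and Psmd5, against 35.1% of all genes with a mean of at least 1 TPM. Among genes with a mean of at least 10 TPM it was 1 of 33 members (3.03%) against 22.5%. After the scaling to a common upper quartile described next it was 1 of 36 (2.78%, against 33.1%) and, at 10 TPM, 0 of 33 (against 20.4%). The widest members after Psmd8 were Psmd5 (SD 0.31), Psmc1 (0.25), Psmd3 (0.23) and Psma8 (0.21). Psmd3 had 101, 74.4 and 79.0 TPM, with mouse 1 above the others. The narrowest was Psmb1, with an SD of 0.041.

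**Figure D3:**
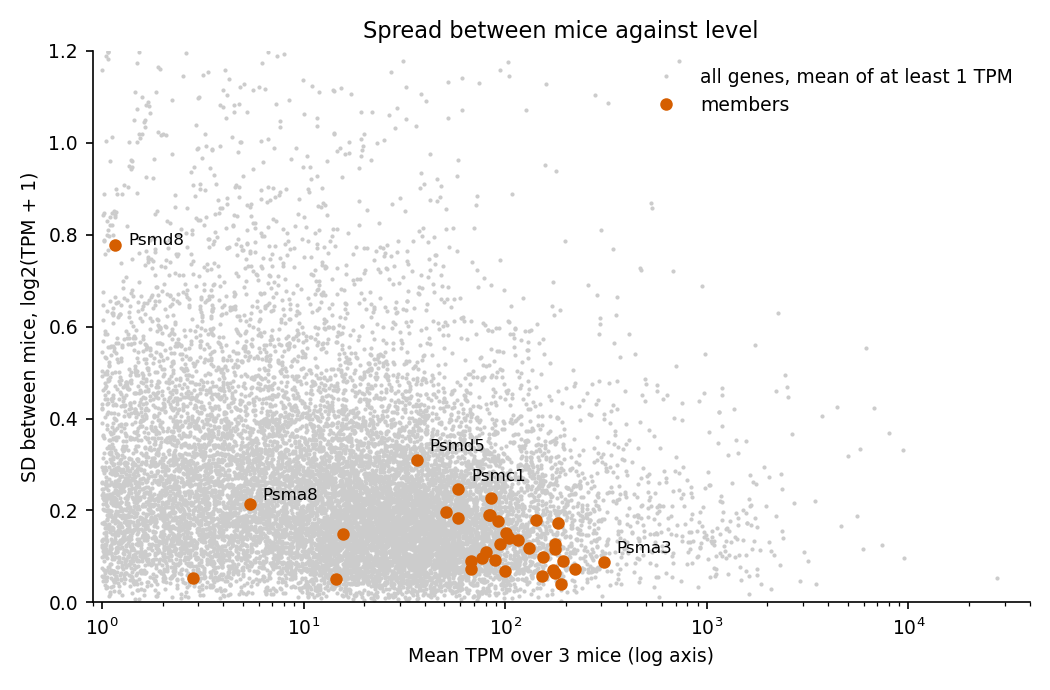
SD between the 3 mice of log2(TPM + 1) against mean TPM (log axis) for all genes with a mean of at least 1 TPM (grey) and the 36 members (orange); 142 genes lie above the axis. Most members lie under 0.21, the median of all genes, and Psmd8 lies at 0.78.

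Small as they were, the differences between mice ran the same way in many members. Mouse 2 was the lowest for 25 of 36 members (69.4%), against 33% of all genes, and mouse 1 the highest for 30 (83.3%), against 48.6%. Mouse 3 was the lowest for 10 (27.8%, against 42.6%) and the highest for 4 (11.1%, against 20.3%). Mouse 2 was the highest for 2 (5.56%, against 31.1%) and mouse 1 the lowest for 1 (2.78%, against 24.4%). The full order, mouse 1 above mouse 3 above mouse 2, was found for 22 (61.1%, against 22.5%). The libraries differed in scale, so the counts were repeated after each was brought to a common upper quartile. That scaling moved the median ratio of mouse 1 to mouse 3 over all genes from 0.14 to -0.018 log2 units. Mouse 2 was then the lowest for 26 members (72.2%), against 35.3% of all genes. Mouse 1 was then the highest for 15 (41.7%, against 35.1%) and mouse 3 for 16 (44.4%, against 32.3%), so the high count of mouse 1 did not hold after scaling, whereas the low count of mouse 2 did. Mouse 2 was then the highest for 5 (13.9%, against 32.6%), mouse 1 the lowest for 7 (19.4%, against 36.3%) and mouse 3 the lowest for 3 (8.33%, against 28.4%). The full order was then found for 13 (36.1%, against 19.5%).

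By role and as deposited, mouse 2 was the lowest for 6 of 7 alpha genes, 5 of 7 beta genes, 5 of 6 ATPases, 2 of 3 other base genes, 5 of 8 lid genes, 2 of 3 chaperones and 0 of 2 tissue-specific genes. After scaling it was the lowest for 6, 4, 5, 2, 7, 2 and 0 of them. Set against mouse 3 alone, which leaves mouse 1 out, mouse 2 was lower for 26 members (72.2%, against 42.8% of all genes) and, after scaling, for 29 (80.6%, against 51.8%). The size was modest: the median ratio of mouse 3 to mouse 2 was 0.082 log2 units over the members and -0.056 over all genes, and after scaling 0.15 and 0.016. Among the 30 assembled subunits without Psmd8, mouse 2 was the lowest for 23 (76.7%) as deposited and 24 (80%) after scaling, against 32.8% and 36% of genes in their range of level.

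The gap between mice 1 and 2 was described by particle, with no test. The median log2 ratio of mouse 1 to mouse 2 was 0.16 for the 14 core genes and 0.28 for the 17 regulatory genes, with 0.37 for the lid and 0.22 for the base, against 0.093 over all genes, all as deposited. After scaling the medians were 0.076 for the core, 0.19 for the regulatory particle, 0.29 for the lid and 0.13 for the base, against 0.0081 over all genes. Psmc1 showed the pattern most widely among the ATPases, with mouse 2 lowest and mouse 1 highest under both scalings.

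**Figure D4:**
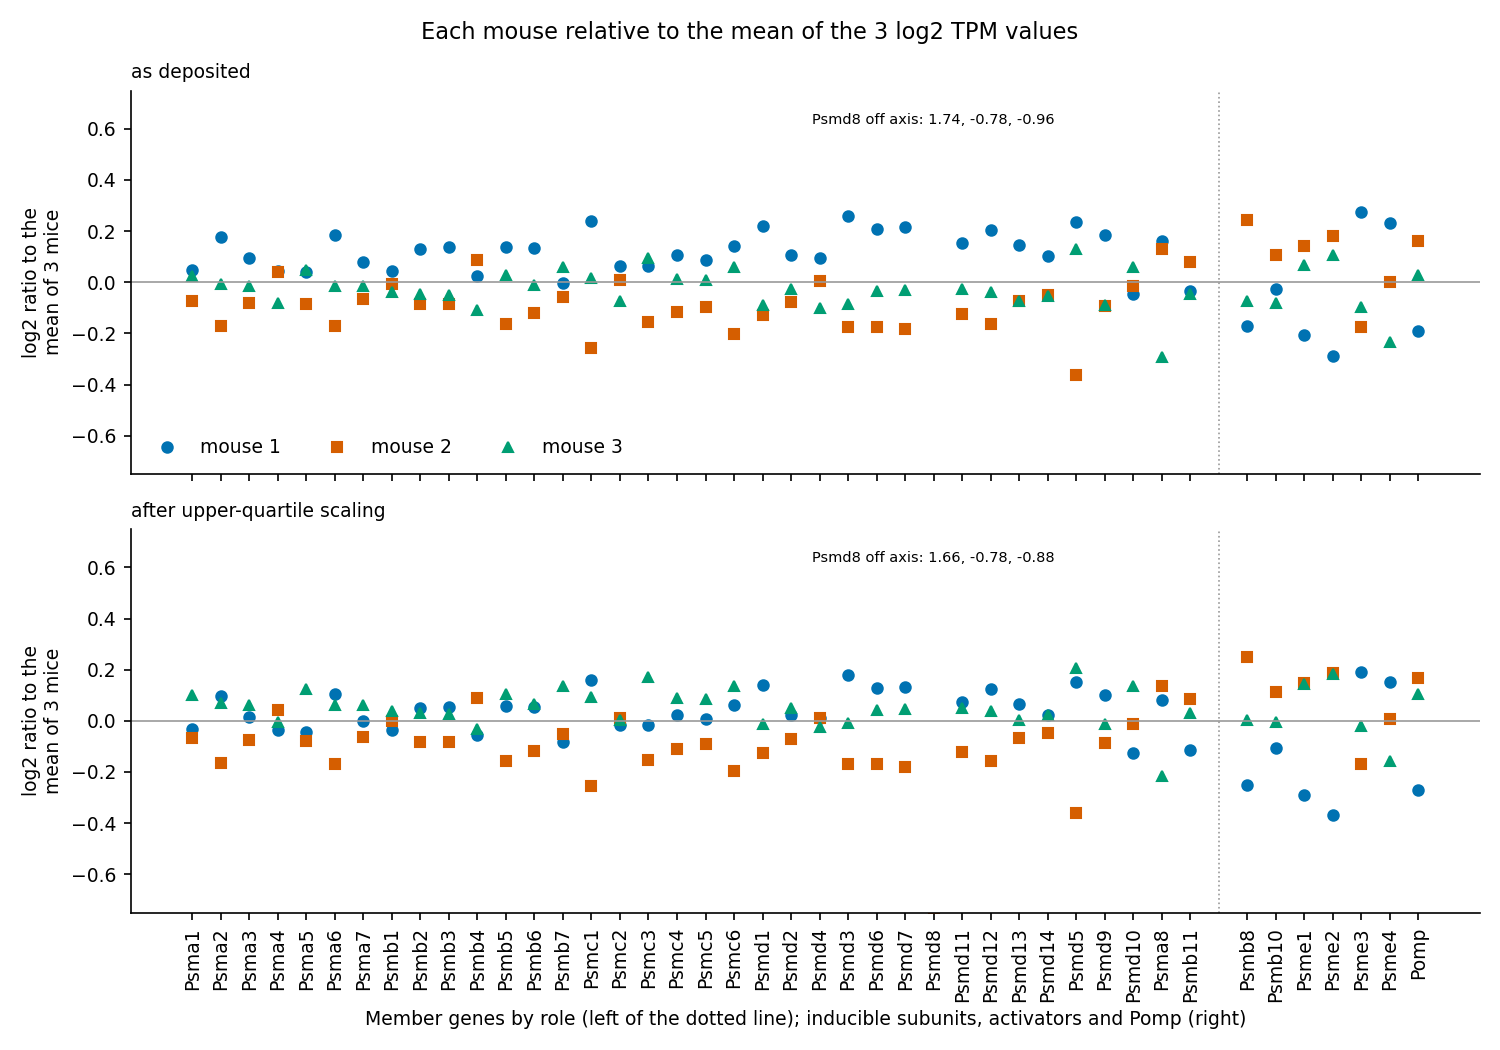
log2 ratio of each mouse to the mean of its 3 log2 TPM values, as deposited (upper panel) and after upper-quartile scaling (lower panel), for the members by role and, right of the dotted line, inducible subunits, activators and Pomp; Psmd8 exceeds the axis and its ratios are printed for mice 1, 2 and 3. Mouse 2 is the lowest for 25 members in the upper and 26 in the lower panel, and the highest for Psmb8 and Psmb10 in both.

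Other marker sums also moved between the mice. Markers of myeloid blasts summed to 3146, 2349 and 4005 TPM in mice 1, 2 and 3, and erythroid markers, with 4 of 5 at a mean of at least 1 TPM, to 25.9, 17.1 and 67.6 TPM. B cell markers, with 3 of 5 at that level, summed to 15.3, 12.8 and 16.4 TPM. Each of these sums was lowest in mouse 2, as most members were. Single markers differed. Of the blast markers, Mpo, Elane, Prtn3 and Ctsg were lowest in mouse 2. Kit (139, 149 and 133 TPM) and Flt3 (146, 157 and 106 TPM) were highest there, and Cd34 and Cebpa were lowest in mouse 3 as deposited. Of the B cell markers, Cd79b was lowest in mouse 2 and the others in mouse 1. The sum of neutrophil markers, with 5 of 5 at a mean of at least 1 TPM, was lowest in mouse 1. Their part in the differences between mice was not tested.

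The inducible subunits and the activator that pairs with them were highest in mouse 2, where most members were lowest. Psmb8 and Psmb10 were the highest in mouse 2 under both scalings. Psmb8 was lowest in mouse 1 under both, and Psmb10 in mouse 3 as deposited and in mouse 1 after scaling. Psme1, a subunit of the activator ring induced by interferon, had 407, 519 and 492 TPM, and its partner Psme2, chosen once its values were known, had 175, 243 and 231 TPM. Both were lowest in mouse 1 and highest in mouse 2 under both scalings. Psmf1, a protein that binds the core and inhibits it in vitro, was the least abundant of the activators and inhibitor, with 35.0, 29.6 and 32.2 TPM.

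Of the 6 listed assembly chaperones that are not members, 5 were measured, and these 5 act on the core. Pomp, which is built into the nascent core and degraded by it, had 231, 295 and 269 TPM and was lowest in mouse 1. The 4 Psmg genes, whose products assemble the alpha ring, were all highest in mouse 1 under both scalings. Of all genes, 48.6% were highest in mouse 1 as deposited and 35.1% after scaling. Psmg3 was the least abundant with 20.5, 15.4 and 16.1 TPM, and Psmg2 the widest with 38.9, 22.6 and 30.7 TPM (SD 0.38 log2 units).

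Partners of the regulatory particle were measured for 6 of 6 genes. AI314180 encodes the clamp Ecm29 that holds core and cap together, and had 153, 133 and 127 TPM. Shfm1, which encodes the small lid subunit Sem1 and falls outside the naming rule of the members, had 25.4, 29.5 and 47.0 TPM (SD 0.45 log2 units), highest in mouse 3 and lowest in mouse 1. In a list of 5 further genes that included Nfe2l1, Zfand5 was the most abundant with 457, 540 and 378 TPM. Ddi2, the protease that activates Nfe2l1, was the least abundant of the 5 with 27.3, 24.0 and 23.2 TPM. Nfe2l1 itself had 78.0, 69.9 and 68.4 TPM.

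Ubqln2, a shuttle that brings ubiquitylated proteins to the proteasome, was the least abundant of the listed ubiquitin genes and shuttles with 27.5, 24.2 and 24.6 TPM. Over the 32 measured pathway genes outside the naming rule and without the inducible subunits, mouse 2 was the lowest for 12, mouse 3 for 12 and mouse 1 for 8 as deposited, where the shares over all genes were 33%, 42.6% and 24.4%. After scaling the counts were 17, 6 and 9, against 35.3%, 28.4% and 36.3% of all genes. As deposited, the count for mouse 2 was near the share over all genes, and after scaling it was above that share.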

How the data were processed

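The deposited data are a single table with 1 value per symbol and mouse. Although its name says log2 FPKM, the numbers are linear, never below 0, and add up to 929731, 927169 and 928490 in mice 1, 2 and 3. They were therefore read as TPM made by the authors. kallisto and the build mm10 are named in the submitters' processing notes, with no version, role or annotation. The labels' protocols name both ribosome depletion and a stranded mRNA kit. Of 28987 rows, 795 without a symbol and 27 with a date in place of one were left out, and 90 symbols on several rows were summed (0 of them members). The table held 3 further per-sample columns that match no labelled sample and were not used.

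Levels were compared as TPM and spreads as the SD of log2(TPM + 1). Genes with a mean of at least 1 TPM formed the background. Upper-quartile scaling used genes above 0. Differences per mouse were tested with the two-sided exact sign-flip permutation test. The mice are separate animals per the labels, so the spread is between animals. Genes with values in each mouse are the catalytic, tissue-specific and chaperone genes, the highest and lowest of each role and the 5 widest members. For the other pathway genes they are the highest and lowest of each role and the 3 widest. A gene that this rule names is not reported here. Further names (Psma7, Psmb8, Psmb10, Psmd7, Psme2, Nfe2l1, Kit, Gm6542, Gm14227, Nek6 and Sirt3) were chosen after their values were seen, as were the comparison with genes of the same level, the search for copies and overlaps, the printed promoters and the genes right of the dotted line in the plot of mice. Members and lists were chosen with earlier results of these data known. The planned protein comparison was not made, since no protein sequences were used here. Copies were sought with blastn 2.17.0 in GENCODE M21 transcripts, and promoters came from RefSeq. The scripts were tested on simulated data. Tests used scipy 1.17.1 with pandas 2.3.3 and numpy 2.4.6 under Python 3.11.15, and plots matplotlib 3.10.9.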

Additional observations from a re-analysis of the deposited data

How the results depend on the processing

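No paired analysis was possible because all 3 mice form 1 group. The ratio of Psmb6 to Psmb9 was planned and not run, since Psmb9 was not analysed here. Alternatives with Psmd8 left out, with mouse 2 set against mouse 3 alone, with another filter for the ratio of 1.5, and those for alpha against beta ring and base against lid were chosen after seeing the data. With upper-quartile scaling, members highest in mice 1, 2 and 3 went from 30, 2 and 4 to 15, 5 and 16, and those lowest in mice 1 and 3 from 1 and 10 to 7 and 3. Members with a ratio of at least 1.5 went from 2 to 1. With a mean of at least 10 TPM, members highest in mouse 2 went from 2 to 1 and those with a ratio of at least 1.5 from 2 to 1, since fewer genes are tested. Leaving out each mouse in turn, the latter ranged from 0 (without mouse 1) to 2, the median SD from 0.0741 (without mouse 1) to 0.154, and base minus lid from -0.022 (without mouse 2) to 0.028. Base minus lid was -0.014 with Psmd8 left out, on the other side of 0 from 0.0037. The cause of the other shifts was not tested. Of 208 recomputed values, 195 kept their direction or stayed within their spread, 11 moved and 2 reversed. The 195 include all 144 means of single members, and none of these means is among the values that moved or reversed. The core minus regulatory difference ranged from 0.98 to 1.22 under its alternatives. All 144 recomputed means of single members moved by less than the SD between mice. With 3 mice, leaving 1 out cannot move a mean by as much as that SD, so nothing is concluded from this count. With depth not known, the share of counting error in the low values of Psmd8, Psma8 and Psmb11 cannot be given.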
